A study of Mus musculus with 2 samples.

Results

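CD8 T cells and *Foxp3*+ regulatory T cells (Tregs) that had entered the same pancreatic islets were compared cell lineage against cell lineage, over all genes, in the wild-type library of the series. The series holds 2 single-cell RNA libraries with 5795 cell barcodes, 1 library for each genotype. The wild-type library came from NOD.Foxp3-EGFP mice, which develop autoimmune diabetes and carry a green fluorescent reporter of *Foxp3*, and the other came from NOD.Tnfrsf9-/-.Foxp3-EGFP mice, which lack *Tnfrsf9*, the gene of the costimulatory receptor CD137, in all cells and carry the same reporter. Per the study's methods, each library pooled the islets of 6 females of 9 to 10 weeks, CD8 T cells and GFP+ Tregs were gated apart by flow cytometry, and both were loaded into a single library, so the ratio of their numbers describes the sort and not the islets. Cells were therefore assigned to a lineage from their own UMIs (unique molecular identifiers, which count single RNA molecules). They were chosen by these counts as follows. Of the 2804 wild-type barcodes, 2714 had 200 to 5000 detected genes and no more than 20% mitochondrial UMIs. A cell was taken as a CD8 T cell with 2 or more UMIs of *Cd8a* and *Cd8b1* together and none of *Cd4* or *Foxp3*. It was taken as a Treg with no *Cd8a* or *Cd8b1* UMI, 1 or more UMIs of *Cd4*, *Foxp3*, *Il2ra* and *Ikzf2* together, and 3 or more UMIs of the CD3 genes *Cd3d*, *Cd3e* and *Cd3g* together. These rules gave 891 CD8 T cells and 1514 Tregs, together 2405 of the 2714 cells.

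CD8 T cells recognize peptides on MHC class I molecules and kill their targets with granule proteases and perforin, and in NOD mice they take part in the destruction of the insulin-producing beta cells. Tregs are CD4 T cells that depend on the transcription factor *Foxp3* and restrain other T cells through inhibitory receptors, cytokines and consumption of interleukin 2. Both lineages leave the thymus from a common precursor, in which *Runx3* and ThPOK (encoded by *Zbtb7b*) oppose each other in the choice between the CD8 and the CD4 fate.

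The genes of the rule are a description of the selection. In CD8 T cells 7424 UMIs of *Cd8a* and 3386 of *Cd8b1* were counted, and 97.0% and 91.1% of the cells had a UMI of the respective gene. In Tregs *Cd4* was detected in 61.3% of the cells, *Il2ra* in 37.4%, *Ikzf2*, which encodes Helios, in 95.5% and *Foxp3* in 13.3%. UMIs of *Ikzf2* were also found in 40.3% of CD8 T cells (19.6%, against 88.7% of Tregs, in cells thinned to 2000 UMIs), at 195 against 1854 CPM (the UMIs of a gene scaled to 1000000 UMIs of its lineage). CD8 T cells were deeper than Tregs, with a median of 6076 UMIs and 2105 genes per cell against 4387.5 UMIs and 1890.5 genes, and the 7014920 and 8824912 UMIs of the lineages were each summed and scaled to CPM.

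Markers outside the rule followed the lineage names. *Nkg7*, a granule membrane protein of cytotoxic cells, stood at 2676 CPM in CD8 T cells and 496 CPM in Tregs. *Cd7*, a surface glycoprotein of T and NK cells, stood at 552 and 30.3 CPM. *Runx3*, the transcription factor of the CD8 fate, stood at 220 and 51.6 CPM. In the other direction *Ctla4*, which competes with CD28 for its ligands, stood at 289 CPM in CD8 T cells and 1570 CPM in Tregs, *Tnfrsf4* (OX40) at 76.8 and 1320 CPM, *Tnfrsf18* (GITR) at 88.2 and 569 CPM, *Izumo1r* (folate receptor 4) at 88.0 and 954 CPM, and *Ikzf4* (Eos) at 16.4 and 107 CPM. Marker detection was less clear in cells at the edge of the rules than in those far inside. The 57 CD8 T cells with exactly 2 Cd8 UMIs had a *Nkg7* UMI in 84.2% and a *Tnfrsf4* UMI in 24.6%, against 98.3% and 21.2% of the 775 with 4 or more. The 63 Tregs with exactly 1 UMI of the Treg genes had a *Ctla4* UMI in 85.7% and a *Tnfrsf4* UMI in 41.3%, against 97.0% and 90.5% of the 201 Tregs with a *Foxp3* UMI. These edge cells were also shallower, with medians of 4096 against 6476 UMIs in CD8 T cells and 2921 against 5188 in Tregs. The shares were not compared at equal depth. Just outside, 193 cells had a single Cd8 UMI, and *Nkg7* was detected in 56.0%, *Ctla4* in 87.0% and *Tnfrsf4* in 76.2% of them. Another 36 cells had both 2 or more Cd8 UMIs and a *Cd4* or *Foxp3* UMI, and their median of 10362.5 UMIs was above that of either lineage. They were left out with 42 cells without a UMI of the Treg genes and 38 cells under 3 CD3 UMIs.

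With 1 library there was no replicate over mice. No test was made, and intervals are exact 95% intervals from the UMI counts that cover counting error only. A gene was compared where the mean of its CPM in both lineages was at least 5, the genes of the rule left out, and it was counted as higher in a lineage from a 2-fold difference on. Of the 9223 genes compared, 276 were at least 2-fold higher in CD8 T cells (2.99%) and 634 in Tregs (6.87%). Most genes differed little, and 77.8% lay within 1.5-fold. The median log2 ratio of CD8 T cells over Tregs (positive where CD8 T cells were higher) was -0.10, with quartiles at -0.39 and 0.15. Differences of 8-fold and more were about as frequent on both sides, with 86 genes higher in CD8 T cells and 94 in Tregs. Protein-coding genes made up 8971 of the genes compared, 259 of those higher in CD8 T cells and 613 of those higher in Tregs, and among 103 lincRNA genes 10 were higher in CD8 T cells and 6 in Tregs.

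**Figure D1:**
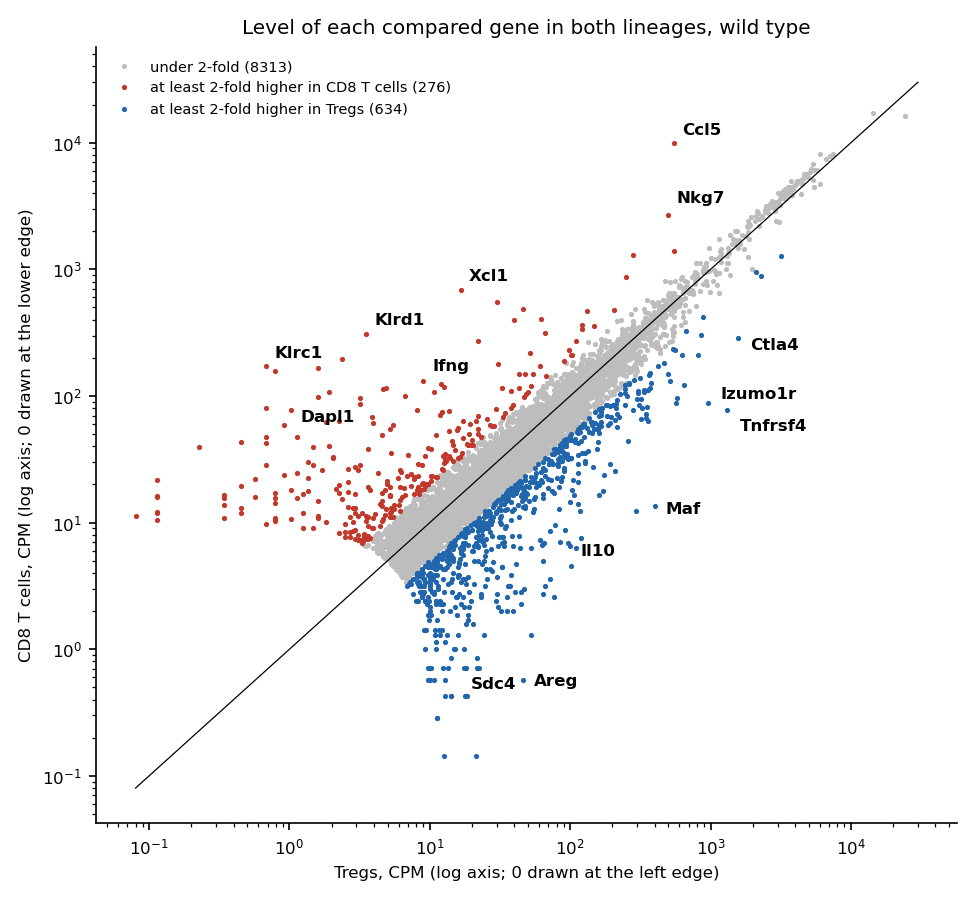
Level of each compared gene in wild-type Tregs (horizontal axis) and wild-type CD8 T cells (vertical axis), both in CPM on log axes, with 1 point per gene. Red marks the 276 genes at least 2-fold higher in CD8 T cells, blue the 634 at least 2-fold higher in Tregs, and the named genes far from the diagonal include *Klrc1* and *Xcl1* on the CD8 side and *Areg* and *Tnfrsf4* on the Treg side.

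Killer cell lectin-like receptors stood out among the genes with the highest ratios in CD8 T cells. These are C-type lectin surface receptors first known from NK cells, which read MHC class I-like ligands on other cells. Of the 14 genes with the highest ratio that were seen in at least 10% of CD8 T cells, 6 belonged to this family. *Klrc1*, which encodes the inhibitory chain NKG2A, stood at 172 CPM in CD8 T cells and 0.680 CPM in Tregs, a log2 ratio of 7.98 (6.86 to 9.43), and was detected in 39.3% of CD8 T cells and 0.396% of Tregs. *Klrd1*, which encodes CD94, the partner chain of the NKG2 receptors, stood at 309.8 and 3.51 CPM (6.46, 5.95 to 7.02) and was detected in 61.8% and 1.78% of cells. *Klrk1*, which encodes the activating receptor NKG2D, stood at 165 and 1.59 CPM (6.70, 5.95 to 7.58). The remaining members were as far apart. *Klrc2* (NKG2C) stood at 80.4 and 0.680 CPM (6.89), *Klre1* at 195 and 2.38 CPM (6.36), and *Klra1*, of the Ly49 family, at 42.5 and 0.680 CPM (5.97). All 6 lie in a gene cluster on chromosome 6 (mm10) whose compared genes span positions 128849090 to 130386874, and with them *Klri2*, at 16.1 and 0.113 CPM (7.15), with 54.9% of its CD8 UMIs from 10 cells. Near-identical copies within the Klra and Klrc genes share reads, so the split of UMIs between them is uncertain, and the reads of NOD mice were aligned to mm10, the genome of another strain.

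The list used for the family also holds genes that are not lectin-like receptors, among them *Tyrobp*, *Fcer1g*, *Cd160* and *Cd244*. Of its 26 members 12 could be compared. Of these, 11, with those 4 included, were at least 2-fold higher in CD8 T cells, against 2.99% of all compared genes. The median log2 ratio of the whole list was 6.20 against -0.10 over all genes. *Klrg1*, a receptor of terminally differentiated T cells, was the exception, at 8.70 CPM in CD8 T cells and 19.8 CPM in Tregs (-1.19). *Cd160*, a receptor for HVEM, belonged to the same list and stood at 113 and 4.65 CPM (4.61). *Tyrobp*, the adapter DAP12 of activating receptors, stood at 59.3 and 0.907 CPM, but 99.3% of its 416 UMIs in CD8 T cells came from 10 cells, and 13 CD8 T cells had any. *Fcer1g* was spread as narrowly, with 13 cells.

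Within CD8 T cells the receptors were unevenly held. At least 1 of the 7 genes *Klrc1*, *Klrc2*, *Klrk1*, *Klrd1*, *Klre1*, *Klra1* and *Klri2* was detected in 73.4% of CD8 T cells and at least 4 in 31.4%, or 280 cells. Among Tregs 4.56% had at least 1 and 0.330% had at least 2. When each cell was thinned to 2000 UMIs to remove the depth difference, 59.7% of CD8 T cells and 1.44% of Tregs had at least 1. *Klrd1* was detected in 87.1% of the 350 CD8 T cells with a *Klrc1* UMI and in 45.5% of the others, and at 2000 UMIs in 58.0% and 33.4%. The cells with *Klrc1* were deeper, with a median of 8434 UMIs against 5545. *Dapl1*, of the list of naive and memory genes, had a log2 ratio of 5.95 (97.9 and 1.59 CPM) but was seldom seen in the same cells as *Klrc1*. It was detected in 2.86% of the CD8 T cells with *Klrc1* and in 27.2% of those without, and at 2000 UMIs in 1.06% and 16.2%.

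The remaining leading genes of CD8 T cells were *Amica1*, an adhesion molecule (108 and 1.93 CPM), *Ppp2r2c*, a regulatory subunit of the phosphatase PP2A (39.3 and 0.227 CPM), the noncoding or uncharacterized genes *A930011G23Rik* (77.0 and 1.02 CPM) and *4933406I18Rik* (47.3 and 0.680 CPM), and *Gm44174*, *Gm44175* and *Smyd1*. The last 3 lie beside the Cd8 genes that the rule used and are no independent evidence. *Gm44174* (158 and 0.793 CPM) ends 143 bases before the start of *Cd8a* on the same strand. *Smyd1* (43.3 and 0.453 CPM) starts, in the GENCODE annotation, 555 bases from *Cd8b1* on the opposite strand. *Gm44175* (16.0 and 0.113 CPM) lies 12598 bases from *Cd8a*. On the Treg side, *Ppp1r3f*, which overlaps *Foxp3*, and *Syp*, 43226 bases from it, had log2 ratios of -3.10 and -2.97. In all, 26 compared genes lie within 100 kb of a gene of the rule. Of these, 4 were at least 2-fold higher in CD8 T cells and 3 in Tregs, against 2.99% and 6.87% of all compared genes. Without these neighbours 272 and 631 genes remained.

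**Figure D2:**
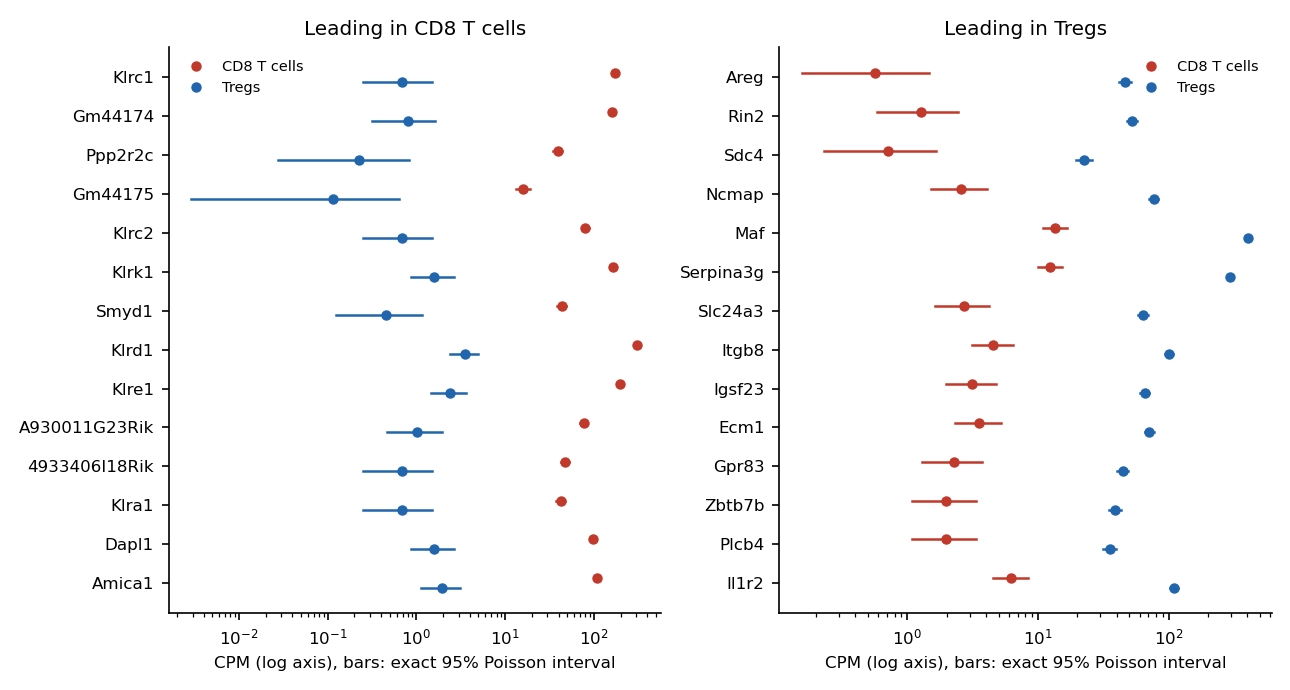
Levels of the 14 genes with the highest and the 14 with the lowest log2 ratio in wild-type CD8 T cells (red) and Tregs (blue), in CPM on a log axis, with exact Poisson 95% intervals as bars. *Klrc1* stands at 172 against 0.680 while *Areg* stands at 0.570 against 46.3. No pair of intervals overlaps, which follows from choosing the genes by their ratio in these same counts.

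The 250 bases before the RefSeq start (GRCm38.p6) are shown for 3 killer receptor genes of the cluster and for 3 genes of the Treg side, because Runx and forkhead factors, which act in these lineages, bind short strings of letters that can be looked for in them. The promoters of 8 of the 14 leading CD8 genes and 13 of the 14 leading Treg genes were found in the RefSeq table. The letters TGTGGT of Runx factors, TCACACC of T-box factors, TGAGTCA of AP-1 and GTAAACA of forkhead factors such as *Foxp3* were searched on both strands. Capitals mark a match, all of TGTGGT or its reverse complement here.

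*Klrc1*, chr6:129678974-129679223, minus strand: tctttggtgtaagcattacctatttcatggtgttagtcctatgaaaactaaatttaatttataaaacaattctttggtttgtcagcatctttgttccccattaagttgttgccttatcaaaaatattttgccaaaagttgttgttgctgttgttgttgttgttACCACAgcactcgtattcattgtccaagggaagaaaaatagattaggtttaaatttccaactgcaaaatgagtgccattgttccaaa
*Klrk1*, chr6:129623865-129624114, minus strand: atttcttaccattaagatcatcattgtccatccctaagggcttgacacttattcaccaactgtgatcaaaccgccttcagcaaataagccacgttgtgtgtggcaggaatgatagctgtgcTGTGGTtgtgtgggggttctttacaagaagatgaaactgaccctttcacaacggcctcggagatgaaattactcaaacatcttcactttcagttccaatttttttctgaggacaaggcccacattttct
*Klra1*, chr6:130386875-130387124, minus strand: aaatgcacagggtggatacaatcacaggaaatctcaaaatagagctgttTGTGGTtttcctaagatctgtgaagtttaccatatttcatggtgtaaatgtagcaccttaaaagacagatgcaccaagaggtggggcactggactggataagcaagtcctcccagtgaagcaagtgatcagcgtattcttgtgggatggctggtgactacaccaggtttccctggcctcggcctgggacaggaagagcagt
*Areg*, chr5:91139349-91139598, plus strand: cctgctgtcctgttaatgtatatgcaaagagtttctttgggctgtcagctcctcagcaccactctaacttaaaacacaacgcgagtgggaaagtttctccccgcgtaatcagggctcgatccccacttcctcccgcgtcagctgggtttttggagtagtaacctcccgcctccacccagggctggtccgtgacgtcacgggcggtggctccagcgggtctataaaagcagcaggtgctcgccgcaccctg
*Serpina3g*, chr12:104235897-104236146, plus strand: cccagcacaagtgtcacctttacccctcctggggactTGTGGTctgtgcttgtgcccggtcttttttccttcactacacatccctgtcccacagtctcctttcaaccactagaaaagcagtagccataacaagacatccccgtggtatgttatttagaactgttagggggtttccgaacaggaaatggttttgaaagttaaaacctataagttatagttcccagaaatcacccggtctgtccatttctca
*Tnfrsf4*, chr4:156013445-156013694, plus strand: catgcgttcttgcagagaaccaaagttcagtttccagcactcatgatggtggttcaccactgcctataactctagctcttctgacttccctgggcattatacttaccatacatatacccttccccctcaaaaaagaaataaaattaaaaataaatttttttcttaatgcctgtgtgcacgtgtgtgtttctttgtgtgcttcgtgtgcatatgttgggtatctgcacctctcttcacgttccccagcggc

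TGTGGT was found in the windows of 6 of the 8 leading CD8 genes (*Klrc1*, *Klrc2*, *Klrk1*, *Klre1*, *Klra1* and *Smyd1*) and in 2 of the 13 leading Treg genes (*Serpina3g* and *Igsf23*). The RefSeq window of *Smyd1*, which lies beside the Cd8 genes, is chr6:71262282-71262531 and not at its GENCODE start. It was found in 14.2% of all 27025 promoters, in 10.6% of those of the compared genes, in 16.6% of those at least 2-fold higher in CD8 T cells and in 10.1% of those at least 2-fold higher in Tregs. The forkhead letters were found in 2.44% and 1.24% of the promoters of genes higher in CD8 T cells and in Tregs and in 2.04% of the compared genes. Those of AP-1 were found in 5.85% and 3.31%, against 2.6% of the compared genes, and those of T-box factors in 3.9% and 3.31%, against 2.79%. Over all promoters the forkhead, AP-1 and T-box letters were found in 3.09%, 4.43% and 3.31%. Neighbouring members of a gene cluster share ancestry, so these windows are not independent, and the matches are letters in sequence and not bound sites.

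The effector molecules of CD8 T cells followed, with chemokines ahead of granule proteases. *Ccl5* (RANTES) stood at 9921 CPM in CD8 T cells and 546 CPM in Tregs, a log2 ratio of 4.18, and was detected in 82.4% and 51.4% of cells. *Xcl1*, which attracts cross-presenting dendritic cells, stood at 689 and 16.5 CPM (5.38, 5.14 to 5.63). *Ccl3* and *Ccl4*, inflammatory chemokines of activated T cells, stood at 486 against 46.1 CPM (3.40) and 1308 against 280.1 CPM (2.22). Of the 5 chemokines compared 4 were higher in CD8 T cells, against 2.99% of all compared genes. Their median log2 ratio was 3.40. The exception was *Cxcl10* (-0.06), an interferon-induced chemokine. *Ccl3* and *Ccl4* went together within CD8 T cells, with *Ccl4* detected in 89.6% of the 318 cells with *Ccl3* and 34.9% of the others.

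*Ifng*, the gene of interferon gamma, stood at 125 CPM in CD8 T cells and 12 CPM in Tregs, a log2 ratio of 3.38 (3.08 to 3.68), and was detected in 39.4% and 4.62% of cells. Among the granule genes, 7 of 13 compared were higher in CD8 T cells and 1 in Tregs, against 2.99% and 6.87% of all compared genes. Their median log2 ratio was 1.84. *Fasl*, the death ligand, stood at 32.9 and 2.04 CPM (4.01) and *Gzmk* at 178 and 30.8 CPM (2.53). *Gzma* stood at 59.0 and 5.44 CPM (3.44), but it was detected in 5.95% of CD8 T cells and 73.7% of its UMIs there came from 10 cells. *Gzmb*, the best-known killing protease, differed less. It stood at 181 and 92.6 CPM, a log2 ratio of 0.97 (0.84 to 1.10), and was detected in 18.2% of CD8 T cells and 11.6% of Tregs. *Srgn*, the proteoglycan that packs granules, was higher in Tregs, at 949 CPM against 2114 CPM (-1.16).

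Genes that mark a lineage were not found in a fixed proportion in the other. The CD8 sum exceeded the Treg sum 253-fold for *Klrc1*, 18.2-fold for *Ccl5* and 5.40-fold for *Nkg7*. In cells with a UMI, CD8 T cells had a median of 65 UMIs of *Ccl5* and 17 of *Nkg7*, and Tregs 2 and 3. *Nkg7* was detected in 45.8% of Tregs. In the other direction the Treg sum exceeded the CD8 sum 81.3-fold for *Areg*, 29.7-fold for *Maf*, 5.44-fold for *Ctla4* and 3.17-fold for *Tnfrsf9*. Free RNA from lysed cells of a lineage adds its genes to the droplets of the other, and its part in these lower levels was not tested in either direction.

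Transcription factors split along the lineage choice, with differences smaller than those of receptors. On the CD8 list, 3 of 8 genes were higher in CD8 T cells and 2 in Tregs (median 0.60). Over all compared genes 2.99% and 6.87% were. *Eomes*, the T-box factor of memory and exhausted CD8 T cells, stood at 99.8 and 6.69 CPM (3.90) and was detected in 37.4% and 2.18% of cells. *Zeb2*, a transcriptional repressor found in terminal effector cells, stood at 77.0 and 8.16 CPM (3.24), and *Runx3* had a log2 ratio of 2.09. *Tbx21* (T-bet) and *Id2* did not reach 2-fold, at 0.48 and 0.71. *Runx1* was higher in Tregs, at 174 and 425 CPM (-1.29). On the CD4 and Treg list, 8 of 24 genes were higher in Tregs, where 6.87% of all compared genes were, and 1 in CD8 T cells (median -0.69). *Maf*, which drives *Il10* in T cells, stood at 13.5 CPM in CD8 T cells and 402.5 CPM in Tregs, a log2 ratio of -4.89 (-5.20 to -4.60). *Zbtb7b* (ThPOK) stood at 2.0 and 38.9 CPM (-4.28) and *Gata3* at 31.9 and 96.7 CPM (-1.60). *Tox2*, at 116 and 32.6 CPM (1.83), was the member higher in CD8 T cells.

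The leading genes of Tregs were of mixed kinds. *Areg*, which encodes the tissue-repair growth factor amphiregulin, stood at 0.570 CPM in CD8 T cells and 46.3 CPM in Tregs, a log2 ratio of -6.34 (-8.23 to -4.98), and was detected in 0.449% and 11.6% of cells. *Itgb8*, the integrin chain that releases active TGF-β, stood at 4.56 and 101 CPM (-4.46) and was detected in 2.58% and 30.8%. *Il1r2*, a decoy receptor for interleukin 1, stood at 6.27 and 109.7 CPM (-4.13). *Serpina3g*, a protease inhibitor of activated lymphocytes, stood at 12.4 and 293 CPM (-4.56). The others were *Rin2* (-5.35), a guanine nucleotide exchange factor of Rab5, the cell-surface proteoglycan *Sdc4* (-4.98), *Ncmap* (-4.90), the ion exchanger *Slc24a3* (-4.56), *Igsf23* (-4.39), the matrix protein *Ecm1* (-4.32), the orphan receptor *Gpr83* (-4.29) and the phospholipase *Plcb4* (-4.15).

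The median log2 ratio of 25 Treg signature genes that the rule did not use was -2.44. None was higher in CD8 T cells, and 22 were at least 2-fold higher in Tregs, against 6.87% of all compared genes. Besides *Tnfrsf4*, *Izumo1r*, *Tnfrsf18* and *Ctla4*, they included *Socs2*, a brake on cytokine signaling (-3.79), *Swap70* (-3.26), *Cd83* (-3.07), *Capg*, an actin-capping protein (-2.37), and *Lrrc32* (GARP), which holds latent TGF-β at the cell surface (0.713 and 17.6 CPM, -4.62). The list was assembled from known Treg genes and so restates the sort in part. UMIs of these genes were also counted in CD8 T cells. *Ctla4* was detected in 65.1% of CD8 T cells and 95.1% of Tregs, at a median of 2 and 7 UMIs per positive cell, and *Tnfrsf4* in 20.3% and 84.7%. Of the 8 genes *Tnfrsf4*, *Tnfrsf18*, *Izumo1r*, *Ctla4*, *Icos*, *Capg*, *Maf* and *Itgb8*, 4 or more were detected in 88.0% of Tregs and 19.8% of CD8 T cells, and at 2000 UMIs in 69.9% and 2.52%.

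Of 14 suppressive genes compared, 8 were higher in Tregs and 1 in CD8 T cells (median -1.88), where 6.87% and 2.99% of all compared genes were. *Il10* stood at 6.56 CPM in CD8 T cells and 99.7 CPM in Tregs (-3.93) and was detected in 3.93% and 19.0% of cells. Within Tregs, *Maf* was detected in 90.2% of the 287 cells with *Il10* and 63.6% of the others, and at 2000 UMIs in 73.6% and 42.3%. *Ebi3*, the shared chain of interleukins 27 and 35, had a log2 ratio of -4.24, *Fgl2* of -3.67 and *Nt5e* (CD73), which makes adenosine, of -1.65. *Ada*, which breaks adenosine down, was the member higher in CD8 T cells (1.04), and *Lgals1*, at 2026 and 1501 CPM (0.43), and *Entpd1* (CD39, 0.21) did not reach 2-fold.

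Of 25 cytokine receptors, 10 were higher in Tregs, against 6.87% of all compared genes, 1 was higher in CD8 T cells and 14 lay within 2-fold (median -0.77). *Il1r1*, the signaling receptor of interleukin 1, stood at 0.855 and 21.8 CPM (-4.67). *Il1rl1* (ST2), the receptor of interleukin 33, had a log2 ratio of -4.24, and *Ifngr1*, the receptor chain of interferon gamma, stood at 127 and 376 CPM (-1.57), opposite to its ligand. *Tgfbr1* was higher in Tregs (-2.20) and *Tgfbr3*, which binds TGF-β without signaling by itself, in CD8 T cells at 107 and 10.7 CPM (3.33). *Il1r2*, the decoy, was detected in 44.1% of the 111 Tregs with *Il1r1* and 19.5% of the others, and at 2000 UMIs in 24.1% and 11.8%. Of the 8 cytokines with enough UMIs, *Ifng* was higher in CD8 T cells and *Csf1* (2.85 and 40.7 CPM, -3.83) and *Il10* in Tregs (median -0.26), while *Tnf* (0.64) and *Tgfb1* (-0.52) stayed under 2-fold.

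*Tnfrsf9*, the gene of CD137 that the series is about, had UMIs in both lineages and a higher level in Tregs. It stood at 106.5 CPM in CD8 T cells and 338 CPM in Tregs, a log2 ratio of -1.66 (-1.78 to -1.55), and was detected in 26.9% and 50.7% of cells, or 12.9% and 34.0% at 2000 UMIs. Of the cells with *Tnfrsf9*, 43.3% of the CD8 T cells and 34.2% of the Tregs held a single UMI of it. The knockout library still held *Tnfrsf9* UMIs, at 32.0 and 110 CPM, and its log2 ratio was -1.78. Both levels lay below the wild-type 106.5 and 338 CPM. In a 3′ library, UMIs outside the disrupted part of the gene can remain. Where these UMIs lie was not examined, so the values are no check of the genotype. Within wild-type Tregs, *Itgb8* was detected in 42.8% of the 768 cells with *Tnfrsf9* and 18.4% of the others, and at 2000 UMIs in 25.2% and 12%.

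Other members of the TNF receptor superfamily and their ligands went both ways. Of 23 compared, 8 were higher in Tregs and 3 in CD8 T cells (median -0.55), and over all compared genes 6.87% and 2.99% were. *Tnfrsf4* had the lowest log2 ratio of the receptors (-4.10), while *Tnfsf4*, which encodes its ligand OX40L, was on the CD8 side at 22.2 and 0.567 CPM (5.29). *Tnfsf14* (LIGHT) was higher in CD8 T cells as well (2.02), beside *Fasl*, and *Cd40lg*, the helper ligand of CD4 T cells, in Tregs (-3.36). *Tnfrsf13b* (TACI) and *Tnfrsf1b* (TNFR2) had log2 ratios of -2.13 and -1.85. *Tnfrsf18* was detected in 87.4% of the Tregs with *Tnfrsf4* and 50.4% of the others, and at 2000 UMIs in 67.7% and 44.2%.

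Inhibitory and CD28-family receptors were divided, with 6 of 20 compared higher in CD8 T cells and 5 in Tregs (median -0.36). Of all compared genes 2.99% and 6.87% were. *Pdcd1* (PD-1) stood at 273 CPM in CD8 T cells and 109.9 CPM in Tregs (1.31) and was detected in 57.2% and 33.4% of cells. *Cd226* (1.63) and *Havcr2* (TIM-3, 1.02) were on the same side. The collagen receptor *Lair1* had a log2 ratio of 3.21 (1.39 in the knockout library), but it was detected in 4.71% of CD8 T cells and 65.0% of its 103 UMIs there came from 10 cells. *Tigit*, which competes with CD226, was higher in Tregs (-1.29), as were *Cd200r1* (-2.10), *Cd5* (-1.32) and *Ctla4*. *Lag3* stood at 422 and 641 CPM (-0.60) and did not reach 2-fold. On the list of exhaustion-associated genes, which shares members with this and other lists, 7 of 14 were higher in CD8 T cells and 2 in Tregs (median 0.87), and *Tox*, a transcription factor of exhausted cells, stood at 950.4 and 889.5 CPM (0.10).

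Of 28 homing receptors and integrins, 4 were higher in CD8 T cells and 8 in Tregs (median -0.39), against 2.99% and 6.87% of all compared genes. *Cxcr6*, a receptor of tissue-resident T cells, stood at 314 and 66.1 CPM (2.25), *Ccr9* had a log2 ratio of 3.16, and *Itga1* (CD49a) of 2.93. *Ccr4* stood at 0.428 and 18.4 CPM (-5.42), and *Ccr8* (-3.62), *Ccr6* (-3.50) and *Ccr2* (-1.64) were likewise higher in Tregs. *Itgae* (CD103), often read as a mark of resident CD8 T cells, was higher in Tregs (-1.55). Of 15 naive and memory genes, 2 were higher in CD8 T cells, *Dapl1* and *Igfbp4* (4.75), and none in Tregs (median 0.42), and *Tcf7* (0.68), *Il7r* (0.42) and *Ccr7* (-0.26) stayed under 2-fold.

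Of 24 genes induced by the T cell receptor or of the AP-1 family, 9 were higher in Tregs and 2 in CD8 T cells (median -0.55), where 6.87% and 2.99% of all compared genes were. *Nfkbia*, the inhibitor of NF-κB, stood at 212 and 625 CPM (-1.56) and *Nr4a1* (Nur77) at 32.4 and 100 CPM (-1.63), while *Nr4a2* (1.42) and the phosphatase *Dusp2* (1.12) were higher in CD8 T cells. Among 27 components of receptor signaling 5 were higher in Tregs and 1 in CD8 T cells, and the median of -0.20 was near the -0.10 of all genes. The latter was *Themis*, which tunes receptor signals in developing T cells, at 397 and 39.9 CPM (3.31) and detected in 87.3% and 13.3% of cells. *Malt1*, a protease upstream of NF-κB, stood at 131 and 511 CPM (-1.96), and *Lck*, the proximal kinase, did not reach 2-fold (-0.20).

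Of 33 interferon-stimulated genes, 9 were higher in Tregs, where 6.87% of all compared genes were, and none in CD8 T cells (median -0.63). *Iigp1*, an immunity-related GTPase, stood at 25.7 and 209.9 CPM (-3.03) and was detected in 9.76% and 47.0% of cells. *Ly6a* (Sca-1) stood at 888 and 2282 CPM (-1.36) and *Ifi27l2a* at 1275 and 3154 CPM (-1.31). The 23 genes of MHC class I and antigen processing held none past 2-fold, and their median of -0.09 lay close to that of all genes. It turned to 0.01 when the sums were scaled by TMM factors, which shift every log2 ratio by 0.10 toward CD8 T cells.

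Of 20 glycolysis genes 3 were higher in Tregs, where 6.87% of all compared genes were (median -0.21), *Ldhb* (-2.75), the lactate exporter *Slc16a3* (-2.15) and *Hif1a* (112 and 335 CPM, -1.59). Of 13 BCL2-family genes 2 were higher in Tregs, *Bbc3* (-1.59) and *Bcl2l1* (-1.28), while *Bcl2* stood at 0.71. Of 14 S100, annexin and galectin genes 2 were higher in CD8 T cells, where 2.99% of all compared genes were, *Lgals3* (1.5) and *Anxa2* (341 and 122 CPM, 1.49). No member of the 82 ribosomal protein genes (median 0.21) or of the 13 mitochondrially encoded genes (median 0.28) passed 2-fold. The constant genes of the T cell receptor were not analysed here.

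**Figure D3:**
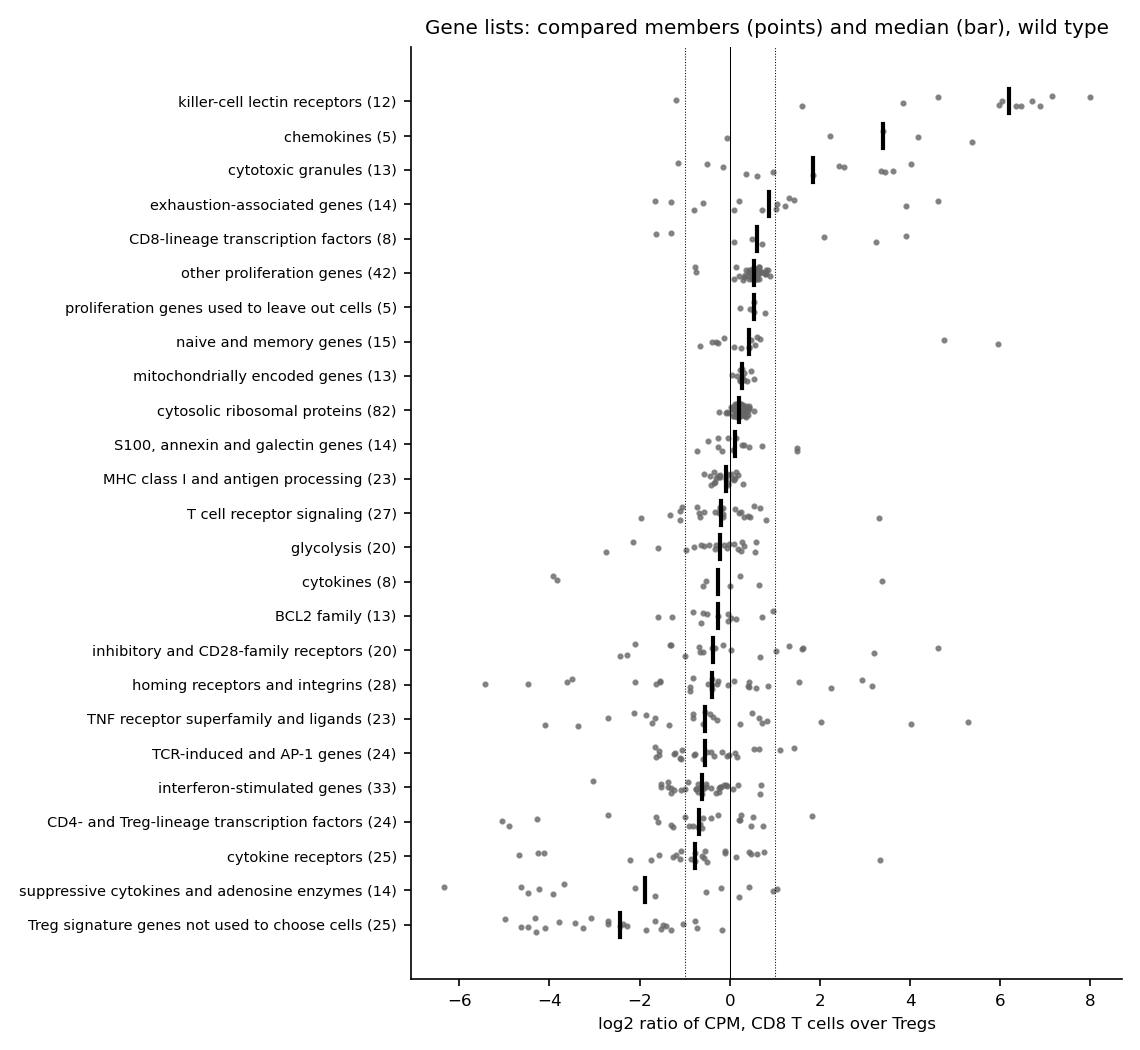
Log2 ratio of wild-type CD8 T cells over Tregs for each compared member (points) of the lists with at least 5 compared members, with the median of each list as a bar and lines at 2-fold. The list of killer lectin receptors and other genes (median 6.20) and the chemokines (3.40) lie to the CD8 side. The Treg signature (-2.44) and suppressive genes (-1.88) lie to the Treg side.

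Dividing cells were more frequent among wild-type CD8 T cells. A cell was counted as cycling with 3 or more UMIs of *Mki67*, *Top2a*, *Birc5*, *Ube2c* and *Cdk1* together. Of the 891 CD8 T cells 182 were cycling, a share of 20.4% whose exact Clopper-Pearson interval runs from 17.8% to 23.2%. Of the 1514 Tregs 152 were, a share of 10.0% (8.57% to 11.7%). Thinned to 2000 UMIs per cell, 9.61% of CD8 T cells and 5% of Tregs remained cycling, after 17 and 54 cells below that depth had been dropped. Cycling cells were deep, with medians of 13940 UMIs in CD8 T cells and 13458 in Tregs against 5581 and 4070 in the others, so they held 37.8% and 24.2% of the UMIs in the sums. The 5 marker genes had a median log2 ratio of 0.54 and the 42 other proliferation genes of 0.55, with none past 2-fold.

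**Figure D4:**
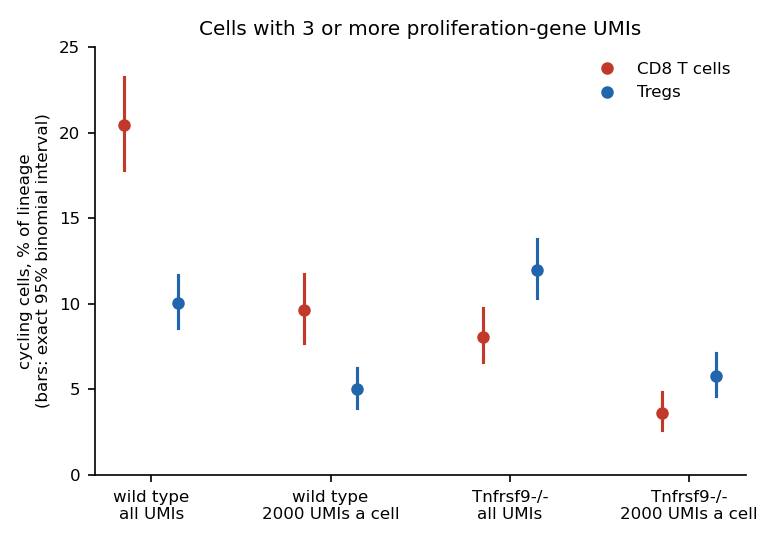
Share of cycling cells in percent among CD8 T cells and Tregs of each library, with all UMIs and after thinning to 2000 UMIs per cell, with exact binomial 95% intervals as bars. With all UMIs the wild-type shares are 20.4% and 10.0%, and those of the knockout library are 8.08% and 12%.

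The comparison was repeated without the cycling cells, over 709 CD8 T cells and 1362 Tregs. Of 9128 genes compared, 281 were at least 2-fold higher in CD8 T cells (3.08%) and 666 in Tregs (7.3%). Of the 276 genes higher in CD8 T cells over all cells, 245 could be compared again and 225 were higher without cycling cells. Of the 634 higher in Tregs, 625 could be compared again and 557 were. No gene of either group that could be compared again changed its direction. The named lineage genes kept their distance, with *Klrd1* at 6.32, the chemokine list at a median of 3.20, and *Areg* at -5.88. *Tnfrsf9* moved from -1.66 to -1.89. Some list counts changed. Higher in CD8 T cells were 4 of 19 inhibitory and CD28-family receptors (6 of 20 before), with *Havcr2* at 0.91, and 5 of 14 exhaustion-associated genes (7 before). Higher in Tregs were 7 of 26 cytokine receptors (10 of 25 before). Other counts rose, as for CD4 and Treg transcription factors in Tregs (8 of 24 to 10 of 23) and granule genes in CD8 T cells (7 to 8 of 13). The genes that crossed the 2-fold line included proliferation genes. *Melk*, a mitotic kinase, moved from -0.39 to -2.14, the kinesin *Kifc1* from -0.11 to -1.67 and the centromeric histone *Cenpa* from 0.10 to -1.01, so that their remaining UMIs in the cells not counted as cycling were on the Treg side. Toward CD8 T cells, *Lef1*, a transcription factor of naive cells, moved from 0.57 to 1.03 and *Sgk1* from 0.95 to 1.41. Of the genes that left the groups, *Dusp7* moved from -1.58 to -0.94, *Il6ra* from -1.20 to -0.85 and *Pmf1* from 1.09 to 0.48. Of the 42 other proliferation genes, 28 could be compared in both, with a median of 0.51 over all cells and 0.10 without cycling cells.

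The knockout library gave the same comparison in other mice of another genotype. It is set beside the wild-type values and is no replicate of them. It held 1200 CD8 T cells and 1401 Tregs, and of 9284 genes compared 296 were at least 2-fold higher in CD8 T cells (3.19%) and 528 in Tregs (5.69%). Of the 276 wild-type CD8 genes 174 were in the same group there, 63.0% of the wild-type genes and 58.8% of the knockout ones. Of the 634 wild-type Treg genes 402 were, 63.4% and 76.1%. Only 238 of the 276 and 611 of the 634 could be compared there. Of those, 221 and 606 kept their side, where 31.2% and 68.8% of all genes compared in both libraries lay. No gene was 2-fold higher in opposite lineages in the 2 libraries. The leading genes had the same direction, with *Klrc1* at 7.27, *Klrd1* at 6.01 and *Klre1* at 5.91 in the knockout library, and *Areg* at -5.35, *Maf* at -4.78 and *Itgb8* at -4.11. Their levels were not all alike, since *Klrc1* stood at 76.5 CPM and *Klrk1* at 67.3 CPM in knockout CD8 T cells, below the wild-type 172 and 165 CPM, and *Dapl1* at 224 CPM, above 97.9 CPM. Several list medians differed between the libraries. That of naive and memory genes was 0.42 in wild-type cells and 0.98 in knockout cells, with 7 genes past 2-fold, *Il7r* at 1.34 and *Ccr7* at 1.40 among them. That of the exhaustion-associated genes was 0.87 and 0.41, with *Pdcd1* at 1.31 and 0.61, *Havcr2* at 1.02 and 0.22 and *Entpd1* at 0.21 and -1.02. The cycling share was 8.08% (6.60 to 9.77) in knockout CD8 T cells and 12% (10.3 to 13.8) in knockout Tregs. Genotype, mice and library cannot be told apart in these differences.

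**Figure D5:**
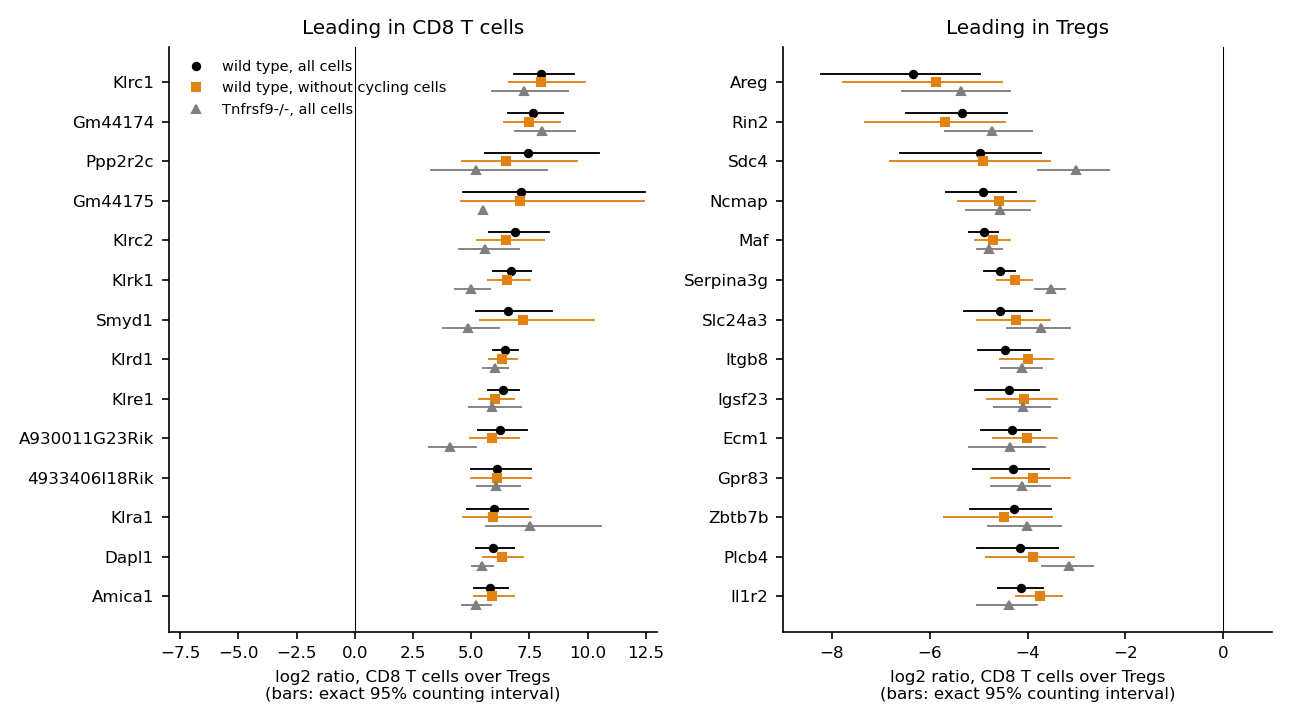
Log2 ratio of CD8 T cells over Tregs for the 28 leading genes in all wild-type cells, in wild-type cells without cycling cells and in all cells of the knockout library, with exact 95% counting intervals. All genes keep their side in the 3 comparisons (*Gm44175* in the knockout is a bound, with no Treg UMI), and *Sdc4* lies nearer to 0 in the knockout (-3.02) than in the wild type (-4.98).

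Transcripts of other cell types were unevenly spread, and several were concentrated in few cells. Beside the narrowly spread *Tyrobp* and *Fcer1g*, the MHC class II genes *H2-Aa* and *H2-Ab1* had log2 ratios of 3.40 and 3.23, but 96.3% and 96.4% of their UMIs in CD8 T cells came from 10 cells. *Cd74* was the reverse, with a UMI in 7.18% of CD8 T cells and 28.5% of Tregs. Of its UMIs 86.6% in CD8 T cells and 12.8% in Tregs came from 10 cells. *Prss2*, a pancreatic trypsin, stood at 55.3 and 5.21 CPM (3.41) with a UMI in 47 CD8 T cells and 27 Tregs, while *Amy2a5* had no UMI and *Ctrb1*, another acinar enzyme, had 8 and 42 UMIs. Some other markers were at or near 0 for B cells (*Cd79a* with 1 and 1 UMI) and macrophages (*Csf1r* with none, *Lyz2* with 4 and 4). The same held for NK cells (*Klrb1c* with none, *Ncr1* with 1 and 0) and erythroid cells (*Hbb-bs* with none). Members of the myeloid, endothelial and acinar lists were spread more widely. *Cst3* was detected in 62.9% of CD8 T cells and 70.1% of Tregs and *Pecam1* in 18.7% and 24.6%. *Cd68* was detected in 9.43% and 2.64% and *Cela1* in 6.40% and 3.30%. Cells with 2 or more UMIs of *Tyrobp*, *Fcer1g*, *H2-Aa*, *H2-Ab1* and *Prss2* together made up 5.61% of CD8 T cells and 1.39% of Tregs, and without them 253 genes were at least 2-fold higher in CD8 T cells and 663 in Tregs.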

How the data were processed

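Per the study's methods, islet cells were sorted by flow cytometry and 10x 3′ v2 libraries were made. The authors deposited UMI counts of each gene in each cell, made with Cell Ranger 7.0.0 on mm10 per the file headers and the submitters' processing notes; whether intronic reads were counted is not given in the sources used here. The 2 libraries held 19904506 (wild type, 2804 barcodes) and 19639995 UMIs (knockout, 2991 barcodes), and 16 barcodes occurred in both. Of 27998 gene IDs, 27645 matched GENCODE vM21. UMIs were summed per lineage, scaled to CPM by the lineage total and compared as a ratio, and a lineage without UMIs was set to 3 counts. Intervals are exact: Poisson for levels, conditional binomial for ratios, Clopper-Pearson for shares. They cover counting error only. No doublets were called or removed, and thinning drew 2000 UMIs per cell. The leading genes were the 14 with the highest and the 14 with the lowest log2 ratio among compared genes with 100 or more UMIs in the higher lineage and a UMI in at least 10% of its cells, receptor segments left out. From each list up to 4 members with the largest ratio in either direction and the member with the highest CPM were eligible to be named, and other list members, the cells' rule genes and the genes that moved most without cycling cells were added after their values were seen. Members and lists were chosen with earlier results of these data known. Python 3.11.15 with numpy 2.4.6, scipy 1.17.1 and matplotlib 3.10.9 was used, and edgeR 4.0.16 for TMM factors only. The ratio and its interval were tested on simulated data. Replicates could not be left out, since there was 1 library per genotype. Some members of the lists are not reported here.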

Additional observations from a re-analysis of the deposited data

Results flagged for a closer look

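The share of cycling cells differed in direction between the libraries. The wild-type CD8 T cells exceeded the Tregs by 10.4 percentage points, and in the knockout library the difference was -3.91 percentage points. The genes of proliferation went the same way. The median log2 ratio of CD8 T cells over Tregs for the 5 genes that marked cycling cells was 0.54 in wild-type cells and -0.66 in knockout cells, and that of the 42 other proliferation genes was 0.55 and -0.45. With 1 library of each genotype the difference between them was not tested, and at 2000 UMIs per cell the shares were 9.61% and 5% for the wild type, 3.63% and 5.78% for the knockout. The 193 wild-type cells with a single Cd8 UMI, which belong to neither lineage, had a *Nkg7* UMI in 56.0% and a *Ctla4* UMI in 87.0%. Both shares lie between those of the lineages, 97.2% and 45.8% for *Nkg7* and 65.1% and 95.1% for *Ctla4* in CD8 T cells and Tregs. *Tnfrsf4* was detected in 76.2% of the single-UMI cells, against 20.3% of CD8 T cells and 84.7% of Tregs. *Gm44174*, beside *Cd8a*, was detected in 4.15% of them, against 64.1% and 0.462%. Each of these shares was nearer to that of Tregs.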

How the results depend on the processing

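The counts of genes higher in CD8 T cells and in Tregs, over all cells and then without cycling cells, were 276, 634, 281 and 666. They were set mostly by the filter on low levels and the size asked for. With a mean of at least 1 CPM they were 565, 1175, 622 and 1230, with at least 20 CPM 119, 317, 124 and 336, from 1.5-fold on 613, 1438, 561 and 1474, and from 4-fold on 121, 193, 135 and 194. With Tregs limited to the 201 cells with a *Foxp3* UMI, 436 genes were higher in CD8 T cells without cycling cells. TMM factors and medians of ratios moved all log2 ratios toward CD8 T cells by 0.10 and 0.11 (0.13 and 0.14 without cycling cells), and the counts with TMM were 319, 544, 338 and 540. All other settings, among them thinning, stricter cell filters and leaving out cells with RNA of other cell types, which was chosen after seeing the data, gave counts within 1.5-fold. The cycling share of CD8 T cells was 9.61% after thinning, 24.5% and 16.9% with 2 and 5 UMIs asked for, and 14.9% under the stricter cell filter. That of Tregs was 5%, 13.5%, 8.19% and 7.68% in the same order, and 15.9% among those with a *Foxp3* UMI. Of 25 lists 11 had a median above 0, and 3 changed sign under a setting: MHC class I genes (0.01 with TMM factors, 0.02 with medians of ratios), and with Tregs that had a *Foxp3* UMI the 5 proliferation genes (-0.16) and the S100, annexin and galectin genes (-0.01). Of the 139 named genes, none of the 91 past 2-fold changed direction under the 12 settings run on them, and 88 stayed past 2-fold wherever they were compared. Of the others, 12 changed sign under a setting, all with a log2 ratio of 0.90 or less in size, among them *Mki67* (0.54, at its lowest -0.38), *Cks1b* (0.90 and -0.66), *Ins2* (0.54 and -0.35) and *Gapdh* (0.19 and -0.08). The exceptions to the 2-fold were *Sla* (-0.99 under another scaling) and, with Foxp3-UMI Tregs, *Fosl2* (-0.90) and *Slfn5* (-0.80). The causes were not tested. No paired analysis was possible because each genotype has a single library.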

Other observations

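Some abundant genes on none of the lists also separated the lineages. They were chosen after their values were seen, as genes of over 400 CPM in the higher lineage. In CD8 T cells these included *Ms4a4b*, a surface protein of T cells, at 864 CPM against 250.1 CPM in Tregs (log2 ratio 1.79), *Sub1*, a transcriptional coactivator, at 1393 and 549.7 CPM (1.34), and the noncoding *BC018473* at 406 and 61.5 CPM (2.72). In Tregs they included the kinase *Pim1*, an interleukin 2 target, at 121 CPM in CD8 T cells and 651 CPM in Tregs (-2.42), the nucleotide hydrolase *Samhd1* at 149.7 and 498 CPM (-1.74), the calcium-binding *Sdf4* at 211 and 813 CPM (-1.94) and *Rabgap1l* at 302 and 849 CPM (-1.49).

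Pairs of effector genes differed in how often they were found in the same cell. In CD8 T cells *Gzmk* was detected in 67.6% of the cells with *Eomes* and 28.1% of the others, and at 2000 UMIs per cell in 39.6% and 19.2%. *Ccl3* was detected in 38.9% of the cells with *Xcl1* and 34.0% of the others, but at 2000 UMIs in 19.3% and 25.1%, so that order turned with depth. In Tregs *Il1rl1* was detected in 6.25% of the cells with *Areg* and 4.71% of the others, and at 2000 UMIs in 2.02% and 2.72%, which turned as well. Cells share a library and pool, and these shares are descriptions without a test.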
